A study of Mus musculus with 6 samples.

Results

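A group of matrix metalloproteinases that lie outside the chromosome 9 cluster of such genes was examined in YUMM3.3 melanoma tumors. The group held 10 genes chosen by name, out of 23 *Mmp* genes and 40166 genes in the count table. It did not hold every *Mmp* gene outside the cluster. It comprised the gelatinases *Mmp2* and *Mmp9*, the transmembrane membrane-type enzymes *Mmp14*, *Mmp15*, *Mmp16* and *Mmp24*, the lipid-anchored *Mmp17*, and *Mmp11*, *Mmp19* and *Mmp23*. YUMM3.3 is a mouse melanoma cell line with mutant BRAF, and its cells were injected under the skin of C57BL/6 mice. Vehicle-treated mice received water and RGS-treated mice received rigosertib (RGS), a RAS mimetic, at 300 mg/kg, both by gavage in 100 μL on 5 days of each week. Per the labels dosing started at an average tumor volume of about 100 mm3, for which the methods also allow day 10 after injection. RNA was taken from 3 tumors per group on day 17 of treatment. Mice were 8 to 10 weeks old when tumor cells were injected, and YUMM3.3 tumors were grown in female and, in another experiment, male mice. The sources used here do not state which sex gave these RNA samples. The 6 tumors grew from a single cell line.

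Matrix metalloproteinases are zinc-dependent proteases that cut extracellular matrix, growth factors and surface proteins. They are made as inactive proenzymes, and tissue inhibitors of metalloproteinases (TIMPs) block the active forms. Several members carry a run of basic residues that the protease furin can cut during secretion, and the enzyme encoded by *Mmp14* activates the proenzyme of *Mmp2* at the cell surface with TIMP2 as the bridging partner. In melanoma these enzymes are best known for their part in invasion through basement membrane and collagen.

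The zinc-binding site of these enzymes is shown first, because it was found in all 10 genes, those that rose, fell or did not pass the test alike. The reading frame of 1 principal GENCODE M21 transcript per gene was searched for the zinc-binding site, and 1 match was found in each of the 10 genes. The stretches below are 33 bases of coding sequence on the gene's strand (GRCm38), 5′ to 3′, with the codons of the 3 zinc-binding histidines in capitals. They lie in exon 5 of *Mmp14* (chr14:54437627-54437659), *Mmp16* (chr4:18051748-18051780), *Mmp11* (chr10:75926931-75926963, minus strand) and *Mmp19* (chr10:128795673-128795705), and in exon 8 of *Mmp2* (chr8:92839279-92839311) and *Mmp9* (chr2:164951133-164951165).
Mmp14: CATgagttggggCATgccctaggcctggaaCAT
Mmp16: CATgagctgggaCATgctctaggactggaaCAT
Mmp2: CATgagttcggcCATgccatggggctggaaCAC
Mmp9: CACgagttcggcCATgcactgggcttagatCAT
Mmp11: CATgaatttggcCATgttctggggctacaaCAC
Mmp19: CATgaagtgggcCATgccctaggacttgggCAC
*Mmp14* and *Mmp16* were identical at 29 of the 33 bases, *Mmp2* and *Mmp9* at 25, and *Mmp14* and *Mmp11* at 23. *Mmp2* matched *Mmp15* at 29 and *Mmp14* at 27, so these numbers did not simply follow the subgroups.

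A basic site of the kind that furin cuts (arginine, any residue, arginine or lysine, arginine) was encoded upstream of the zinc-binding site in 7 of the 10 genes. No match was found in *Mmp2*, *Mmp9* or *Mmp19*. The codons are shown for the member that rose, for 2 members that fell and for *Mmp23*, with the basic residues of the pattern in capitals, from exon 3 of *Mmp14* (chr14:54436202-54436213) and *Mmp16* (chr4:17996258-17996269) and exon 2 of *Mmp11* (chr10:75928327-75928338) and *Mmp23* (chr4:155652502-155652513), the last 2 on the minus strand.
Mmp14: CGGaggAAGCGC
Mmp16: CGTcgaAAGCGC
Mmp11: CGAcagAAGCGC
Mmp23: CGAagaCGCCGC
Of the other 3 genes, *Mmp17* had 1 match, *Mmp24* had 2 and *Mmp15* had 3.

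The raw counts summed to between 13837932 and 32555494 per tumor, and each vehicle library was deeper than each RGS library. Levels are given as CPM, which are counts scaled to a common library total, here with edgeR's TMM factors of 0.920 to 1.08. A gene was tested when its median count was at least 5 in at least 1 group, and 15355 genes passed. RGS was compared with vehicle using the quasi-likelihood method of edgeR, p-values were adjusted over all of these genes (Benjamini-Hochberg), and an adjusted p under 0.05 was the threshold. At that threshold 2503 genes were higher and 2533 lower with RGS, and scaling by library size only moved this split to 1870 higher and 3152 lower. That scaling also moved the median log2 fold change of these genes from -0.05 to -0.19. The smallest count treated as detection was set by a floor of 3 counts, which was 0.0856 to 0.226 CPM depending on the library. Floors cover counting error only, because copies of 1 molecule could not be told from separate molecules.

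The labels call the samples melanoma tumors, and markers of cell types were checked in them. Of 10 melanocyte lineage markers, 7 had at most 3 counts in every tumor and 6 had none, among them *Mlana*, *Tyr* and *Dct*. Many markers of infiltrating cells were also near 0. Of 12 macrophage markers, 7 had at most 3 counts in every tumor and *Adgre1* had none, and the list's sum, led by *Cd68* and *Cd14*, was 65.1 to 71.0 CPM with vehicle and 83.0 to 107 CPM with RGS. Of 11 neutrophil markers and 10 T and NK cell markers, 8 each had at most 3 counts in every tumor, with sums from 0.114 to 0.673 CPM (led by *S100a8* and *Ly6g*) and from 0.0285 to 1.42 CPM (led by *Trac* and *Cd4*). Melanocyte lineage markers, led by *Mitf* and *Pmel*, summed to 4.94 to 7.67 CPM with vehicle and 4.53 to 10.5 CPM with RGS. Endothelial markers, led by *Flt1* and *Cdh5*, summed to 35.1 to 58.9 CPM and 40.6 to 45.2 CPM, and 3 of the 10 had at most 3 counts in every tumor. Keratinocyte markers summed to 0.770 to 1.72 CPM with vehicle and 6.77 to 23.1 CPM with RGS, led by *Ivl* and *Krt10*, and 5 of the 10 had at most 3 counts in every tumor. Fibroblast markers had sums of 526 to 739 CPM with vehicle and 341 to 381 CPM with RGS, mainly from *Col1a2* and *Pdgfra*, while *Lum* was at 0 in all 6 tumors. The filter on counts left 2 macrophage, 6 endothelial, 1 T and NK cell, 2 keratinocyte, 1 neutrophil and 2 melanocyte lineage markers to test. At the threshold used here, 1 gene each of the macrophage (*Cd14*), endothelial (*Cdh5*), T and NK cell (*Trac*) and keratinocyte (*Ivl*) lists was higher with RGS. No tested gene of these lists was lower, and no tested neutrophil or melanocyte lineage marker passed in either direction. Of all tested genes, 16.3% were higher and 16.5% lower. With so few markers tested, an absence of calls says little about these lists. *Trac* and *Ivl* had no counts in vehicle tumors and entered the test through the RGS tumors alone, so a higher call was the one direction open to them. The part of these marker differences in the levels of the *Mmp* genes was not tested. In these bulk samples fewer cells of a type and less RNA per cell cannot be told apart. Nor can marker RNA of a cell type be told from the same RNA made by the tumor cells.

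**Figure D1:**
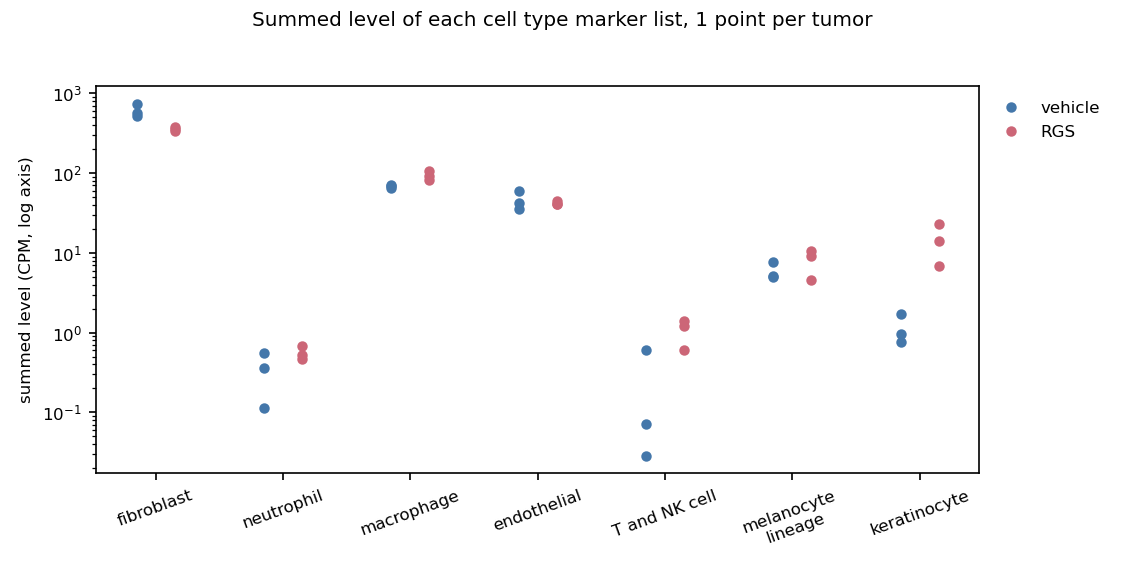
Summed level of each of 7 cell type marker lists (vertical axis: CPM, log axis), with 1 point per tumor in vehicle (blue) and RGS (red). The neutrophil and the T and NK cell lists stay at or below 1.42 CPM in every tumor, and the fibroblast list is at 341 CPM or above.

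Of the 10 genes, 8 were tested. With RGS, 1 of the 8 was higher and 3 were lower at the threshold, compared with 16.3% of all tested genes higher and 16.5% lower. *Mmp14* was the gene that rose, about 2.02-fold. *Mmp11* was 1.87-fold and *Mmp19* 1.94-fold lower, and *Mmp16* fell to 0 counts. *Mmp2*, *Mmp9*, *Mmp17* and *Mmp23* did not pass the threshold, and *Mmp15* and *Mmp24* had too few counts to be tested. *Mmp16* could pass the filter through its vehicle counts alone, so its call adds no support to the count. Vehicle and RGS tumors were fully separated for these 4 genes, upward for 1 and downward for 3. For the same reason *Mmp16* adds no support to the downward count. Of all tested genes, 21.7% were separated upward, 24.0% downward and 45.8% in either direction. The median log2 fold change of the 8 genes was -0.77, beside -0.05 for all tested genes. This median counts *Mmp16*, which was the lowest of the 8 values by its fit and at its bound. Setting *Mmp16* at its bound could therefore not move the median.

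**Figure D2:**
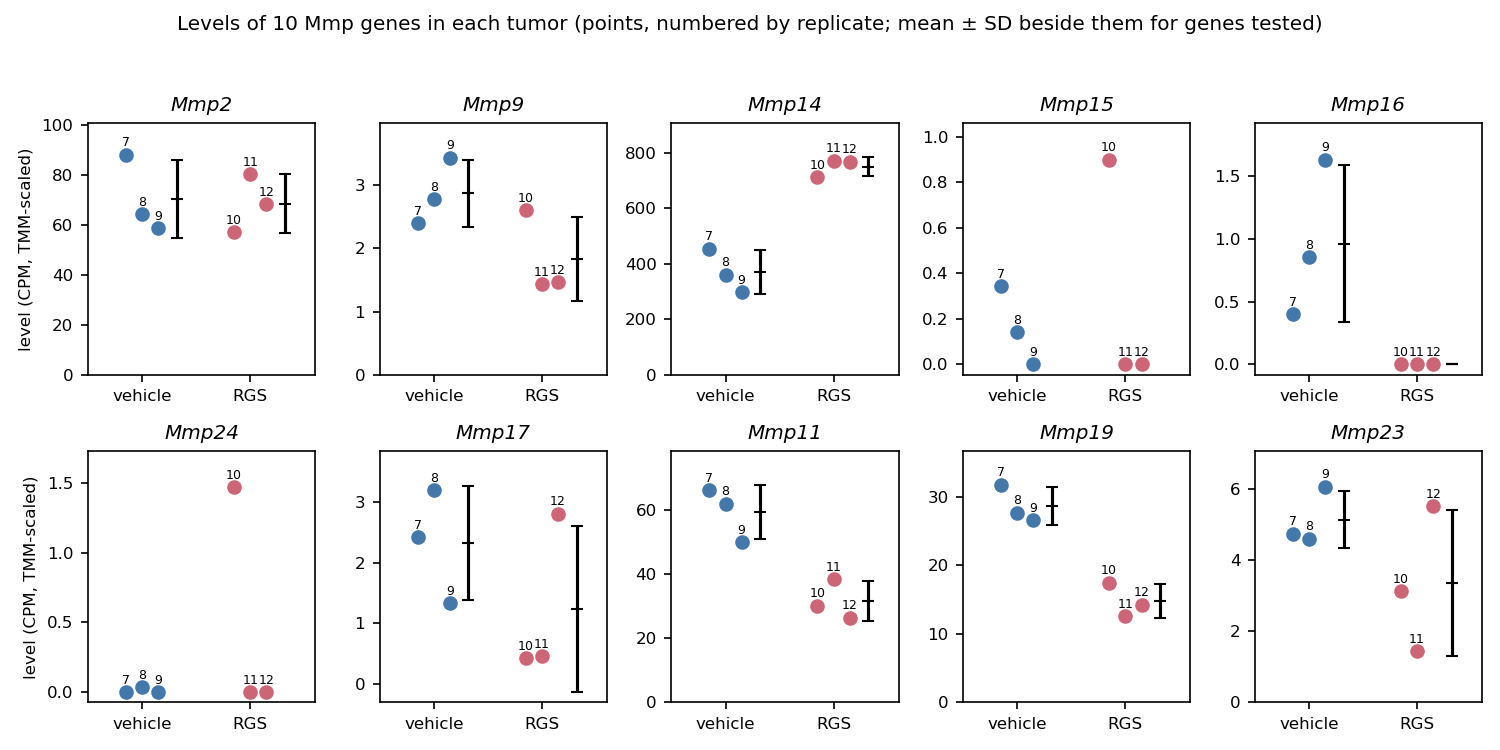
Level of each of the 10 genes in each tumor (vertical axes: CPM after TMM scaling, scaled separately for each gene), with points numbered by replicate in vehicle (blue) and RGS (red), and the mean ± SD (n = 3) beside them for the 8 tested genes. All RGS points lie above all vehicle points for Mmp14 and below them for Mmp11, Mmp16 and Mmp19.

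*Mmp14* (ENSMUSG00000000957.11, chromosome 14, 54431612 to 54445364) encodes the membrane-type enzyme that cuts fibrillar collagen and activates pro-MMP2. Its level was 455, 360 and 296 CPM in vehicle replicates 7, 8 and 9 and 711, 771 and 768 CPM in RGS replicates 10, 11 and 12. Every RGS tumor was above every vehicle tumor, and the vehicle tumors spread more widely than the RGS tumors. The mean rose from 370.4 ± 79.6 to 749.9 ± 33.6 CPM (n = 3 per group, ± SD), a log2 fold change of 1.02 ± 0.17 (SE) with an edgeR adjusted p = 1.18e-04. These values rest on between 6899 and 15936 counts per tumor. With single tumors left out the log2 fold change stayed between 0.88 and 1.19, and it was 0.87 with library size only, each past the threshold. Vehicle replicate 7, the deepest library, had the highest vehicle level of *Mmp14* and also of *Mmp2*, *Mmp11* and *Mmp19*.

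The other membrane-type genes were far less abundant. *Mmp16* (ENSMUSG00000028226.15, chromosome 4, 17852893 to 18119145), which encodes a second membrane-type enzyme able to activate pro-MMP2, had 14, 24 and 38 counts in vehicle replicates 7, 8 and 9 and none in any RGS tumor. In CPM the vehicle levels were 0.399, 0.855 and 1.63. Against the floor of 3 counts per library, the gene was at least 5.24-fold lower with RGS (adjusted p = 0.0121 from edgeR). It passed the count filter through the vehicle tumors alone. The call was lost without vehicle replicate 8 (adjusted p = 0.0522 from edgeR) and without vehicle replicate 9 (adjusted p = 0.0757 from edgeR).

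*Mmp17* (ENSMUSG00000029436.9, chromosome 5, 129584169 to 129611099) encodes a membrane-type enzyme held by a lipid anchor. Its level was 2.42, 3.21 and 1.33 CPM with vehicle and 0.426, 0.452 and 2.81 CPM with RGS. RGS replicates 10 and 11 were below all vehicle tumors, and RGS replicate 12 was within the vehicle range. The log2 fold change was -0.91 with a 95% interval from -2.77 to 0.94 (adjusted p = 0.464 from edgeR), so a difference was not resolved at 6 to 90 counts per tumor. With single tumors left out the log2 fold change ranged from -0.49 (without RGS replicate 10) to -2.41 (without RGS replicate 12). It was -0.54 without RGS replicate 11 and -0.58 without vehicle replicate 8, and none of these fits passed the threshold (smallest adjusted p = 0.0724 from edgeR).

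*Mmp15* (ENSMUSG00000031790.8, chromosome 8, 95352268 to 95375080) and *Mmp24* (ENSMUSG00000027612.7, chromosome 2, 155775342 to 155818366) encode further membrane-type enzymes, the latter known mainly from nervous tissue. *Mmp15* had 12, 4 and 0 counts with vehicle and 19, 0 and 0 counts with RGS. *Mmp24* had 0, 1 and 0 counts with vehicle and 31, 0 and 0 counts with RGS. In each gene the highest count was in RGS replicate 10 while the other RGS tumors had none. *Mmp24* shares 637 of its 4683 exon bases with *BC029722* on the opposite strand, which had 334, 110 and 159 counts in the RGS tumors and 124 to 247 counts with vehicle. The strand setting of the counting is not given in the sources used here, so reads of the overlap cannot be told apart.

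The gelatinases cut denatured collagen and basement membrane collagen. *Mmp2* (ENSMUSG00000031740.8, chromosome 8, 92827291 to 92853420) was at 88.0, 64.2 and 58.5 CPM with vehicle and at 56.9, 80.2 and 68.2 CPM with RGS. The groups overlapped over most of their range. The means were 70.2 ± 15.7 and 68.4 ± 11.7 CPM (SD, n = 3 each), and the log2 fold change was -0.04 with a 95% interval from -0.44 to 0.36 (adjusted p = 0.896 from edgeR). The interval leaves out changes of the size seen for *Mmp14*, whose log2 fold change was 1.02. The sign of this small value was not stable, as it turned to 0.15 without vehicle replicate 7 and to 0.08 without RGS replicate 10.

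*Mmp9* (ENSMUSG00000017737.2, chromosome 2, 164940780 to 164955850), the gelatinase best known from neutrophils and macrophages, was low throughout. It was at 2.40, 2.78 and 3.44 CPM with vehicle and at 2.60, 1.43 and 1.47 CPM with RGS. RGS replicate 10 was within the vehicle range, and the other RGS tumors were below it. The log2 fold change was -0.64 with a 95% interval from -2.02 to 0.74 (adjusted p = 0.494 from edgeR), on 19 to 84 counts per tumor. It was -0.99 without RGS replicate 10, also short of the threshold (adjusted p = 0.301 from edgeR). Neutrophil markers were near 0 in the same libraries, with *Csf3r*, *Cxcr2*, *Mpo* and *Elane* at 0 counts in all 6.

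*Mmp11* (ENSMUSG00000000901.17, chromosome 10, 75923222 to 75936496) encodes stromelysin-3, a secreted enzyme that furin activates inside the cell and that is often made by stromal fibroblasts. Its level was 66.3, 62.0 and 50.1 CPM in the vehicle tumors and 30.2, 38.6 and 26.5 CPM in the RGS tumors. The 3 RGS levels lay under the lowest vehicle level. The mean fell from 59.5 ± 8.42 to 31.7 ± 6.18 CPM (n = 3 per group, ± SD), a log2 fold change of -0.91 ± 0.20 (SE) with an edgeR adjusted p = 0.00152, and with each tumor left out the log2 fold change was between -1.08 and -0.82. Of 10 fibroblast markers tested, 5 were also lower and 1 (*Dcn*) was higher, beside 16.5% lower and 16.3% higher of all tested genes. The 5 lower markers were *Pdgfra*, *Pdgfrb*, *Col1a2*, *Col3a1* and *Acta2*. Other markers of the list were at or near 0 already with vehicle, where *Lum* and *Postn* had no counts and *Dcn* was at 0.571 to 1.46 CPM. The part of these marker differences in the level of *Mmp11* was not tested. *Mmp11* shares 155 of its 2778 exon bases with *Chchd10* on the opposite strand, which had 663 to 808 counts with vehicle and 13 to 58 with RGS, against 1165 to 2324 and 433 to 638 counts for *Mmp11*.

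*Mmp19* (ENSMUSG00000025355.7, chromosome 10, 128790910 to 128800824) encodes a secreted enzyme that cuts basement membrane proteins. It was measured at 31.8, 27.7 and 26.6 CPM with vehicle and at 17.5, 12.6 and 14.2 CPM with RGS, again without overlap. The mean fell from 28.7 ± 2.73 to 14.8 ± 2.48 CPM (n = 3 per group, ± SD), a log2 fold change of -0.95 ± 0.23 (SE) with an edgeR adjusted p = 0.00335, and with each tumor left out the log2 fold change was between -1.10 and -0.86. The gene shares 789 of its 3533 exon bases with *Tmem198b* on the opposite strand. *Tmem198b* had 178 to 768 counts per tumor and a log2 fold change of -0.27 that did not pass the threshold (adjusted p = 0.472 from edgeR).

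*Mmp23* (ENSMUSG00000029061.2, chromosome 4, 155650655 to 155653384) encodes an unusual member that lacks the hemopexin domain of most of the family. It was at 4.74, 4.59 and 6.06 CPM with vehicle and at 3.12, 1.43 and 5.50 CPM with RGS. RGS replicates 10 and 11 were below all vehicle tumors, while RGS replicate 12 was among them. The log2 fold change was -0.61 with a 95% interval from -1.71 to 0.49 (adjusted p = 0.405 from edgeR). It moved to -1.17 without RGS replicate 12 and to -0.26 without RGS replicate 11, and neither fit passed the threshold (adjusted p = 0.117 and adjusted p = 0.709 from edgeR).

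Levels of different genes were compared per length, as CPM per kilobase of the gene length in the table. In vehicle tumors *Mmp14* was highest at 62.1 ± 13.4 CPM per kilobase (SD, n = 3), followed by *Mmp11* at 21.4 ± 3.03 and *Mmp2* at 20.8 ± 4.65, whose ranges overlapped. *Mmp19* (8.11 ± 0.774), *Mmp23* (2.19 ± 0.345), *Mmp9* (0.811 ± 0.149) and *Mmp17* (0.351 ± 0.142) followed as levels per length with no overlap between neighbors. *Mmp16*, *Mmp15* and *Mmp24* came last with levels per length of 0.188 CPM per kilobase or less in every vehicle tumor, and neighbors among them overlapped. In RGS tumors *Mmp14* was at 126 ± 5.64 CPM per kilobase (SD, n = 3), *Mmp2* at 20.3 ± 3.46, *Mmp11* at 11.4 ± 2.23 and *Mmp19* at 4.18 ± 0.703, without overlap between neighbors. All genes below *Mmp19* in that order had ranges that overlapped with their neighbor, except that *Mmp19* and *Mmp23* stayed apart.

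The summed level per length of the 10 genes was 116 ± 21.1 CPM per kilobase with vehicle and 164 ± 8.66 with RGS (SD, n = 3 each). Each RGS sum was above each vehicle sum, at the smallest p that 3 tumors against 3 allow (two-sided exact permutation test, p = 0.1). *Mmp14* made up 51.5% to 55.1% of the sum in vehicle tumors and 75.4% to 77.7% in RGS tumors. *Mmp11* held 17.2% to 19.8% of the sum with vehicle and 5.75% to 8.09% with RGS. *Mmp2* held 16.9% to 18.9% with vehicle and 10.9% to 13.9% with RGS, a lower share of a larger sum. These are shares of RNA level and carry no measure of enzyme activity.

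**Figure D3:**
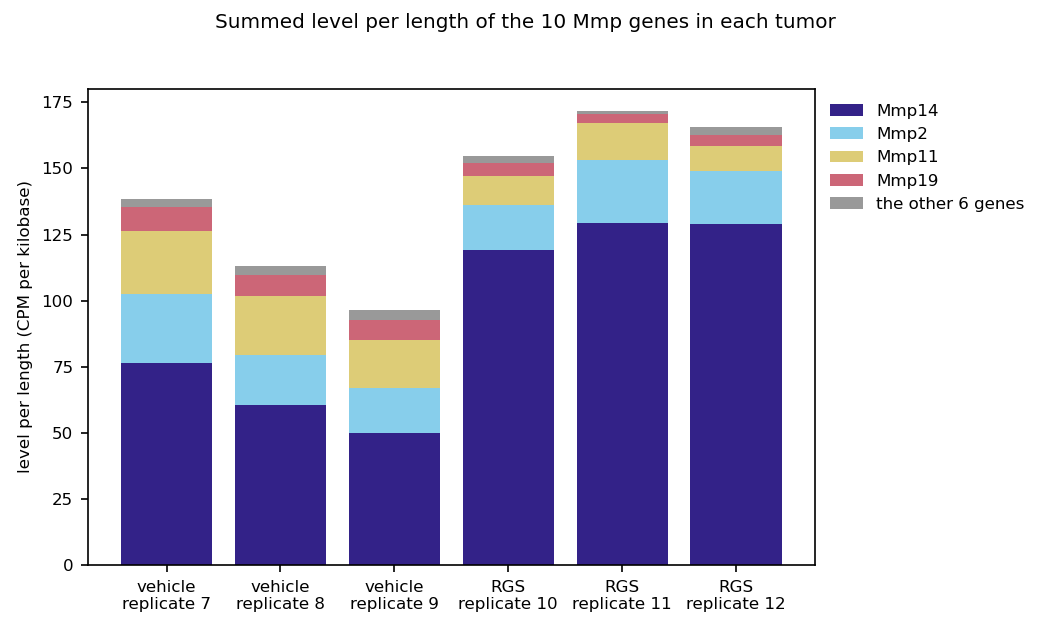
Summed level per length (vertical axis: CPM per kilobase) of the 10 genes in each tumor, stacked by gene, with the 6 least abundant genes drawn together. The Mmp14 segment is 49.7 to 76.3 CPM per kilobase in the vehicle tumors and 119 to 129 in the RGS tumors, while the Mmp11 and Mmp19 segments are smaller with RGS.

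Partners of these enzymes were taken from lists of inhibitors, of activating and inducing proteins, and of substrates. Among 14 inhibitors and clearance genes, 8 were tested, 5 were higher and 1 was lower, beside 16.3% of all tested genes higher and 16.5% lower. The higher count was 3 without RGS replicate 10 and 3 with library size only. It was 2 when the log2 fold change also had to be at least 1 in size. *Timp2*, the inhibitor that also bridges the products of *Mmp14* and *Mmp2*, rose from 782.8 ± 148 to 1294 ± 94.4 CPM (n = 3 per group, ± SD), a log2 fold change of 0.73 with an edgeR adjusted p = 0.00186. *Timp1* rose from 180.3 ± 20.8 to 242.8 ± 7.77 CPM (log2 fold change 0.43, adjusted p = 0.0352 from edgeR). That call was lost when vehicle replicate 8 or any 1 RGS tumor was left out (largest adjusted p = 0.123 from edgeR), and with library size only (adjusted p = 0.155 from edgeR). *Timp3*, the matrix-bound inhibitor, fell from 65.2 ± 23.7 to 28.7 ± 8.33 CPM (log2 fold change -1.18, adjusted p = 0.00150 from edgeR). *Timp4* had too few counts to be tested. *Thbs2*, which encodes a matrix protein that helps clear MMP2, and *Lrp1*, the endocytic receptor for such complexes, had log2 fold changes of 2.36 and 1.40.

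Among 15 genes of activation and induction, 11 were tested, 7 were higher and none was lower. The lower count was 1 with DESeq2, with limma voom or without RGS replicate 10. Of all tested genes, 16.3% were higher and 16.5% lower, the shares to set beside this list and the lists that follow. By edgeR, the plasminogen activators *Plau* and *Plat* and the receptor *Plaur* had log2 fold changes of 2.46, 2.09 and 1.95. The study had already reported from this RNA sequencing that plasminogen activation genes were higher in RGS-treated tumors. The list was chosen with earlier results of these data known, so its higher count is no independent support. *Furin*, named after its values were seen because of the basic sites above, rose from 154 ± 23.0 to 315 ± 27.8 CPM (n = 3 per group, ± SD), a log2 fold change of 1.03 with an edgeR adjusted p = 6.54e-05. *Plg*, the gene of plasminogen itself, had no counts in any tumor. Of 18 substrate genes, 16 were tested, 5 were higher and 6 were lower. This balance was not stable, as 9 were higher without vehicle replicate 7 and 8 with limma voom, beside 6 lower in each. *Fn1*, *Tnc* and *Dcn* were among the higher ones, with log2 fold changes of 1.08, 1.18 and 3.24. *Cxcl12* and *Col1a2* were among the lower ones, with log2 fold changes of -3.09 and -0.73. Of the 13 other *Mmp* genes, most of them in the chromosome 9 cluster, 7 were tested, 5 were higher and none was lower, while 1 was lower with library size only, without a count filter or without RGS replicate 10. *Mmp10* and *Mmp3* were higher from vehicle levels well above the floor. *Mmp1a*, *Mmp1b* and *Mmp12* had at most 1 count in any vehicle tumor and entered the test through the RGS tumors alone, so their calls add no support to that count.

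**Figure D4:**
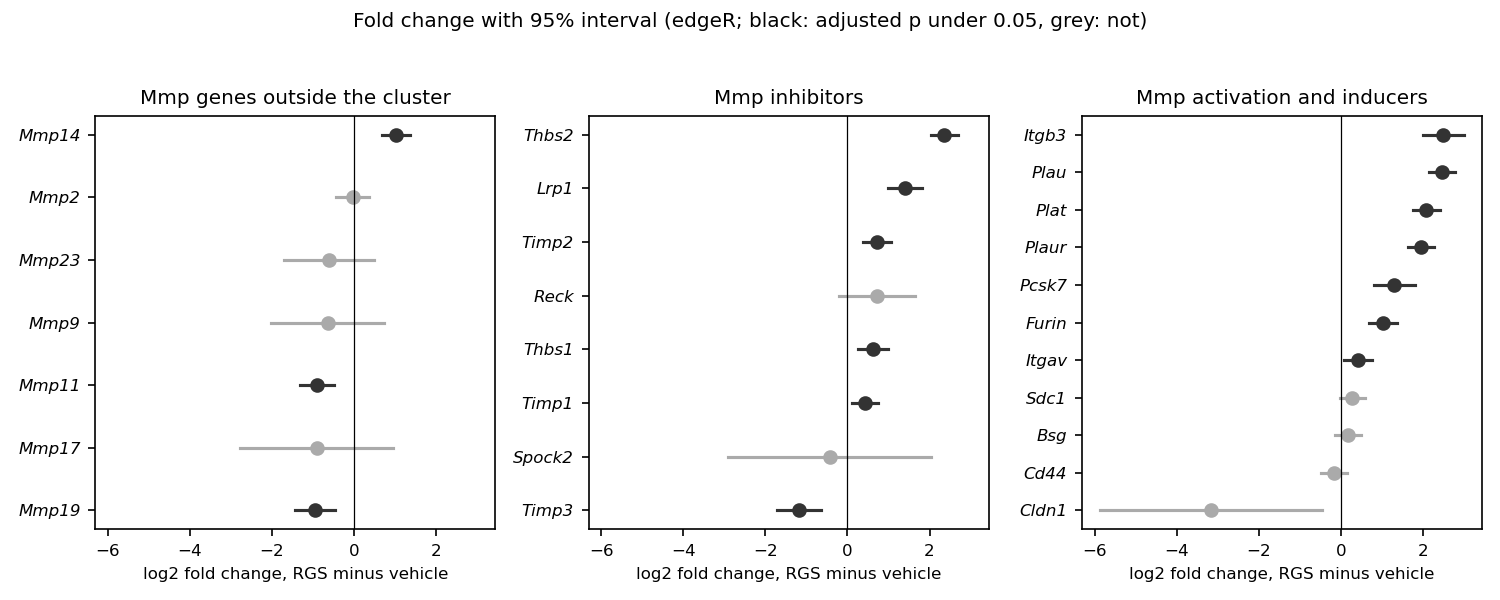
Log2 fold change (horizontal axis, RGS minus vehicle) with its 95% interval for 7 tested genes of the group and for the tested inhibitors and activating genes, black where the edgeR adjusted p was under 0.05 and grey otherwise. Mmp16, which had no counts with RGS, is left out, and Mmp14 at 1.02 is the only black point above 0 in the first panel.

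Since *Mmp14* and *Timp2* both rose, their balance was compared as a ratio of levels per length in each tumor. The ratio of *Mmp14* to *Timp2* was 0.316, 0.310 and 0.299 with vehicle and 0.331, 0.409 and 0.402 with RGS. RGS replicate 10 was close to the vehicle tumors, and the groups did not overlap. The ratio of *Mmp2* to *Timp2* was 0.108, 0.0976 and 0.104 with vehicle and 0.0469, 0.0752 and 0.0632 with RGS. The ratio of *Mmp9* to *Timp1* had a mean of 0.00398 ± 2.89e-04 with vehicle and 0.00191 ± 7.55e-04 with RGS (SD, n = 3 each). For each of these 3 ratios the two-sided exact permutation test gave p = 0.1, the smallest it can give here (adjusted p = 0.133 over 4 ratios). The ratio of all 10 genes to the 4 *Timp* genes was 0.280 ± 0.0390 with vehicle and 0.270 ± 0.0220 with RGS, with overlapping groups (SD, n = 3 each; exact permutation test, p = 0.7).

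**Figure D5:**
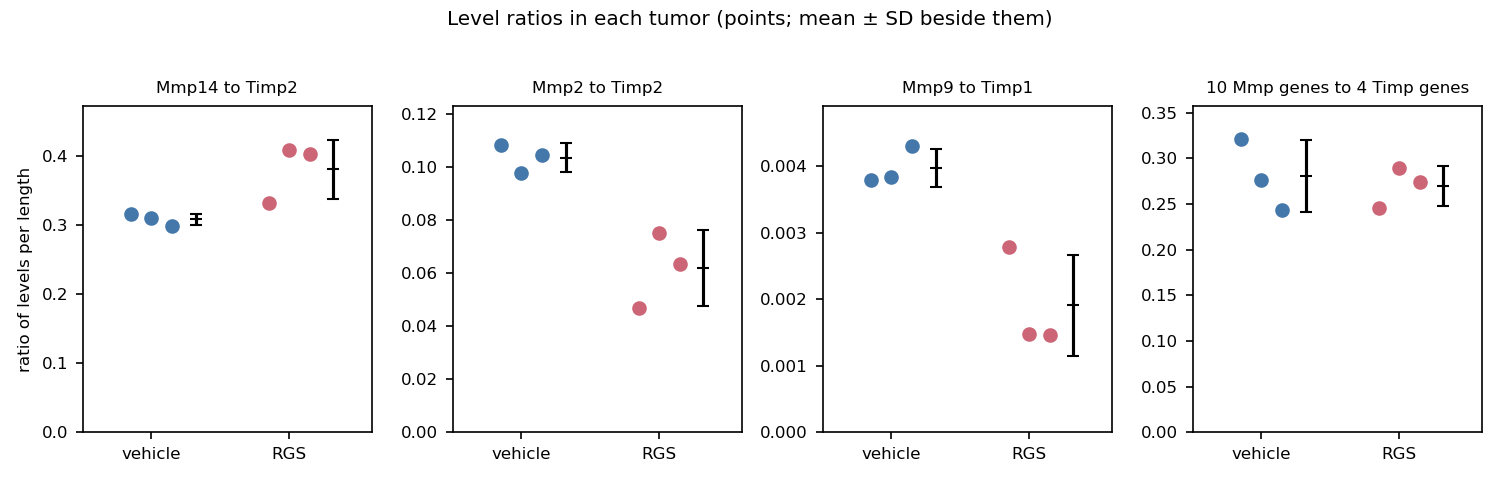
Ratio of levels per length (vertical axes, no unit, starting at 0) in each tumor for 4 pairs, with points for vehicle (blue) and RGS (red) tumors and the mean ± SD (n = 3) beside them. The groups separate for Mmp14 to Timp2, Mmp2 to Timp2 and Mmp9 to Timp1, and overlap for the 10 Mmp genes to the 4 Timp genes.

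The RefSeq table (GRCm38.p6) held promoter windows for 5 of the 10 genes, *Mmp11*, *Mmp14*, *Mmp15*, *Mmp23* and *Mmp24*. The 250 bases before the RefSeq start are shown for *Mmp14* (chr14:54431348-54431597, plus strand) and *Mmp11* (chr10:75932503-75932752, minus strand), the abundant members that moved in opposite directions, with GC boxes in capitals. The *Mmp11* window lies in an intron of a longer *Mmp11* transcript of GENCODE M21.
Mmp14: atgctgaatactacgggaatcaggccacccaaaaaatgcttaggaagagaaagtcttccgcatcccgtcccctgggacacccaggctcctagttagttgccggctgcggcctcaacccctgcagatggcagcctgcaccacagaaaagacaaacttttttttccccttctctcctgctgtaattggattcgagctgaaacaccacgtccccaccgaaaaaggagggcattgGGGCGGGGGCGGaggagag
Mmp11: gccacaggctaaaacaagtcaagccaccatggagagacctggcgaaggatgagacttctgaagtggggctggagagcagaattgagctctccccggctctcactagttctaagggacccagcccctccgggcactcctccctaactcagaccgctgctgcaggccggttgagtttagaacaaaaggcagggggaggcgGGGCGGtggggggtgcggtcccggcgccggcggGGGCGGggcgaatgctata
Each of these windows held 2 GC boxes (GGGCGG, both strands), and in *Mmp14* the pair stood side by side. Of 32851 RefSeq windows of this length, 32.7% held at least 1 GC box. The AP-1 motif (TGANTCA, both strands), present in 6.75% of the windows, and the TATA box (TATAAA, both strands), present in 12.4%, were not found in the windows of any of the 5 genes.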

How the data were processed

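Per the labels, RNA from 3 vehicle and 3 RGS tumors was sequenced (150-base paired-end reads). The file the authors deposited holds unnormalized read counts, with a column for every tumor and the length of each gene. The submitters' processing notes name cutadapt 1.18, FastQC 0.11.7, STAR 2.7.1a, featureCounts 1.6.4 and mm10. Whether counting used strand, and how multi-gene reads were handled, is not given in the sources used here. GENCODE M21 holds 38927 of the gene identifiers, with identical starts and ends in each case. Library totals ran from 13837932 to 32555494 counts.

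Log2 fold changes came from edgeR 4.0.16 (R 4.3.3): TMM factors, genes whose group median reached 5 counts in vehicle or RGS, the quasi-likelihood test, and adjustment across 15355 genes. Standard errors were derived from the F statistic. The scripts were tested on simulated data with 200 changed genes. There edgeR recovered 50% of 2-fold and 60% of 4-fold changes, over genes of all levels, so a gene that did not pass may still differ. The simulation changed a smaller share of genes than the 32.8% called in these data, so its rates may not carry over. False calls made up 9.09% of all calls with edgeR, 27.3% with DESeq2 and 6.25% with limma voom. Alternatives were DESeq2 1.42.0, limma voom 3.58.1, other scalings and filters, thinning to the smallest library, a fold limit, and single tumors left out. Ratios were tested with scipy 1.17.1. The labels do not say that the tumors of a group came from separate mice, so p-values measure the spread between these samples, which may be technical.

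Samples were grouped by title. All 10 genes were named. Of each partner list, the *Timp* genes and up to 3 genes per direction with the smallest adjusted p were named, and of each marker list the 2 most abundant. Of these, 1 gene is not reported here. *Furin*, *Plg*, *Mmp1b*, *Mmp12*, the fibroblast markers *Pdgfrb*, *Col3a1* and *Acta2*, and markers named for being at 0 were chosen after their values were seen. The members and lists were chosen with earlier results of these data known.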

Additional observations from a re-analysis of the deposited data

How the results depend on the processing

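In each alternative run 1 member was higher, and 3 were lower except in those named here. A limit of 1 on the size of the log2 fold change left 1 lower member (*Mmp16*), 4 lower genes in the partner lists (7 before) and 2 in the marker lists (5 before). With the same limit the partner lists held 16 higher genes (22 before). Leaving out single tumors gave 2 to 3 lower members, with 2 when vehicle replicate 8 or 9 was left out. Of 399 recomputed gene values, 383 kept direction and side of the threshold, 13 fell short of it and 3 changed sign. These values covered the tested members, the tested *Timp* genes and the partner genes chosen for the smallest adjusted p. That choice favored stable partner genes, so the count of 383 is no measure of the members alone. The sign changes were those of *Mmp2*, at 0.0803 with limma voom and between -0.18 and 0.15 with single tumors left out. The log2 ratio of the 10 genes to the *Timp* genes was -0.06 and ranged from -0.15 to 0.0523 with single tumors left out. The cause was not tested. Thinning to the smallest library left *Mmp14* at 1.01. The filterByExpr filter of edgeR removed *Mmp16*, which left 2 lower members. Without a count filter, *Mmp24* and *Mmp15* did not pass (edgeR adjusted p = 0.166 and adjusted p = 0.788). No paired analysis was possible because the tumor numbers, 7 to 12, are not shared between the groups.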
